A study of Mus musculus with 4 samples.

Results

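Levels of 9 transcription factor genes that pattern the septum and the neighbouring ventral forebrain were examined in brain septal tissue: Zic1, Zic2, Zic4, Zic5, Six3, Meis2, Dlx1, Prdm16 and Nkx2-1. They were chosen by gene symbol. Of the 9 genes, 8 were among the 15409 gene rows of the deposited files and all 8 were among the 13912 genes tested. Nkx2-1 was not analysed here.

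There were 4 RNA sequencing libraries, 2 of wild-type (WT) mice and 2 of TCRb-/- mice, named for loss of the beta chain of their T cell receptor. Replicate 1 of each genotype came from experiment 1 and replicate 2 from experiment 2, with septal tissue of 4 to 5 mice pooled per library. Mice of both genotypes were restrained for 30 min daily over 3 days, with tissue taken 1.5 h after the final restraint, so the controls were stressed as well and no unstressed group was analysed here. The sources used here state neither age, sex and strain nor how the beta chain gene was disrupted.

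ZIC proteins bind DNA through C2H2 zinc fingers related to those of the GLI factors of the Hedgehog pathway, and they act in the dorsal and midline forebrain from which septal neurons arise. Six3, Meis2, Dlx1 and Nkx2-1 encode homeodomain proteins that specify the rostral and ventral forebrain: Dlx1 acts in GABAergic precursors, Meis2 belongs to the TALE class and remains on in striatal neurons, and Nkx2-1 specifies the medial ganglionic eminence. Prdm16 encodes a zinc finger protein of the PR domain family that is active in radial glia and ependymal cells. In the adult brain several of these genes are used outside the septum too, the Zic genes in the thalamus, cerebellum and meninges and Meis2 in the striatum.

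The libraries held between 19988137 and 26210790 reads, the 2 of experiment 1 being the deeper ones. Trbc2, which encodes part of the constant region of that chain, had 0 reads in both TCRb-/- libraries, 169 in WT replicate 1 and 86 in WT replicate 2, so that reads of it were found in the WT libraries only. Of 7 septal marker genes, 6 were listed, led by Sst (between 168 and 204 CPM, reads scaled to the library total) and Nts (between 56.7 and 76.5 CPM), and Drd3 was not among the rows. Experiments 1 and 2 differed in 23.7% of the genes tested and the genotypes in 0% of them (limma, adjusted p under 0.05). In bulk tissue, fewer cells of a type and less RNA per cell cannot be told apart. The smallest p an exact permutation test of 2 against 2 libraries can give is 0.333, so the tests come from limma fitted across all genes on log2(CPM + 1).

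Per length of annotated exon, Meis2 was the most abundant of the 8 genes and Zic2 the least. Meis2 had a mean of 21.8 RPKM (CPM per kilobase of exon; between 11.7 and 30.0 over the 4 libraries), above 81.5% of genes with a length. Dlx1 followed with 17.4 RPKM (between 16.5 and 19.0), inside the range of Meis2. Six3 had 11.0 RPKM (between 10.2 and 12.3), below every Dlx1 value. Zic1 had 7.40 RPKM (between 6.07 and 9.04), Zic5 5.57 (between 4.32 and 7.43), Zic4 4.43 (between 3.58 and 5.54), Prdm16 3.22 (between 2.81 and 3.50) and Zic2 2.54 (between 1.58 and 3.27). Neighbours in this order from Zic1 down to Zic2 overlapped, except that every Zic4 value lay above every Prdm16 value. The order depends on the length used. Per length of the longest transcript, Meis2 had 47.8 RPKM (between 25.7 and 65.6) and Dlx1 22.9 (between 21.6 and 25.0), so that they no longer overlapped, and Zic4 had 11.8 RPKM, against 7.51 for Zic1 and 5.71 for Zic5. That length was tried after seeing the data.

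Zic1 and Zic4 form a head-to-head pair on mouse chromosome 9 (GRCm38). Zic1 lies on the minus strand from 91358058 to 91365810 and Zic4 on the plus strand from 91362413 to 91389348, both annotated as protein coding, with 60 bp of exon in common on opposite strands. Their RefSeq starts are 3204 bp apart. The 250 bases before each start (RefSeq, GRCm38.p6) are shown because both genes rose in experiment 2, with those of Meis2, which fell. They run 5′ to 3′ on the strand of the gene, chr9:91365769-91366018 (minus) for Zic1, chr9:91368722-91368971 (plus) for Zic4 and chr2:116064620-116064869 (minus) for Meis2. Capitals mark matches on either strand to any of 5 core sites. For MEIS factors the site searched was TGACAG, and for NKX2 factors it was CACTTG. The general homeodomain core was TAATTA, the GLI core was GGGTGGT, and the TATA box was TATAAA.
Zic1: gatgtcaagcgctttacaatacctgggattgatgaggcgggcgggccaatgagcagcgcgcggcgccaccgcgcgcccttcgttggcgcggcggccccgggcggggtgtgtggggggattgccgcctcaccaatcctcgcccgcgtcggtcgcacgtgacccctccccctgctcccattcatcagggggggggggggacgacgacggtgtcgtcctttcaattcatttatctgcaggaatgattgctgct
Zic4: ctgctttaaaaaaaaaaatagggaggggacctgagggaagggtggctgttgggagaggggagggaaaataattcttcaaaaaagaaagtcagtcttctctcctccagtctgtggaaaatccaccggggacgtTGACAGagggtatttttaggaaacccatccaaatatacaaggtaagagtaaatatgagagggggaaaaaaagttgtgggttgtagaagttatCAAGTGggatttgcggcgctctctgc
Meis2: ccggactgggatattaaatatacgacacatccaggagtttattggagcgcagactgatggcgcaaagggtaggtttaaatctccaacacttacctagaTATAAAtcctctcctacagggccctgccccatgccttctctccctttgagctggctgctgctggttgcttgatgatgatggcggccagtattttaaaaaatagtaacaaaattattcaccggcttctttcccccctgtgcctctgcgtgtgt

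The window of Zic1 held 27 CpG dinucleotides, more than in 91.4% of 32851 such windows, and no match to the 5 motifs. The Zic4 window held 4 CpG (more than in 37.8%), 1 match to the MEIS site 118 bases before the start and 1 to the NKX2 site 26 bases before it. The Meis2 window held 7 CpG and 1 match to the TATA site 152 bases before the start. Genes not called between experiments without the block had matches too. Six3 held the MEIS site 139 bases before its start, and Zic5 the NKX2 site 71 bases and the GLI site 231 bases before its start. Over all windows, 15.9% held the MEIS site, 11.6% the NKX2 site, 12.4% the TATA site, 4.84% the homeodomain site and 3.92% the GLI site. The windows before these RefSeq starts of the paired genes thus differ in base composition, with 66.0% G and C before Zic1 and 44.4% before Zic4. The Zic4 and Meis2 windows lie inside the annotated bounds (GENCODE) of those genes, so starts further upstream were not examined. A match is a match of letters and was not tested for binding.

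The comparison of the 2 experiments shows how far the genes varied between pools regardless of genotype. Zic1 and Zic4 were higher in experiment 2, Meis2 was lower, and the other 5 genes did not pass the test. Thus 3 of 8 genes (2 higher, 1 lower) were called in limma, where 23.7% of all genes tested were, 8.95% higher and 14.7% lower. Of all genes called, 37.8% were higher in experiment 2, and 50.6% with quantile normalization, under which Zic2 and Zic5 were called as well (adjusted p 0.0372 and 0.0476). In limma without a mean-variance trend none of the 8 was called: the adjusted p was 0.0862 for Zic1, 0.0870 for Zic4 and 0.0601 for Meis2, and 629 genes in all were called. The median log2 difference, experiment 2 minus experiment 1, was 0.26 over the 8 genes and -0.03 over all genes tested. With genotype as a second term, which is the fit blocked by replicate number, 5 of the 8 were called (4 higher, 1 lower), beside 24.7% of all genes (9.29% higher, 15.4% lower). The 4 Zic genes and Six3 were higher in both experiment 2 libraries than in both of experiment 1, and Meis2 and Prdm16 were lower in both. That is 7 of 8 genes whose experiments did not overlap, beside 67.3% of all genes tested. By direction, 5 of 8 were higher, beside 30.1%, and 2 were lower, beside 37.2%.

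**Figure D1:**
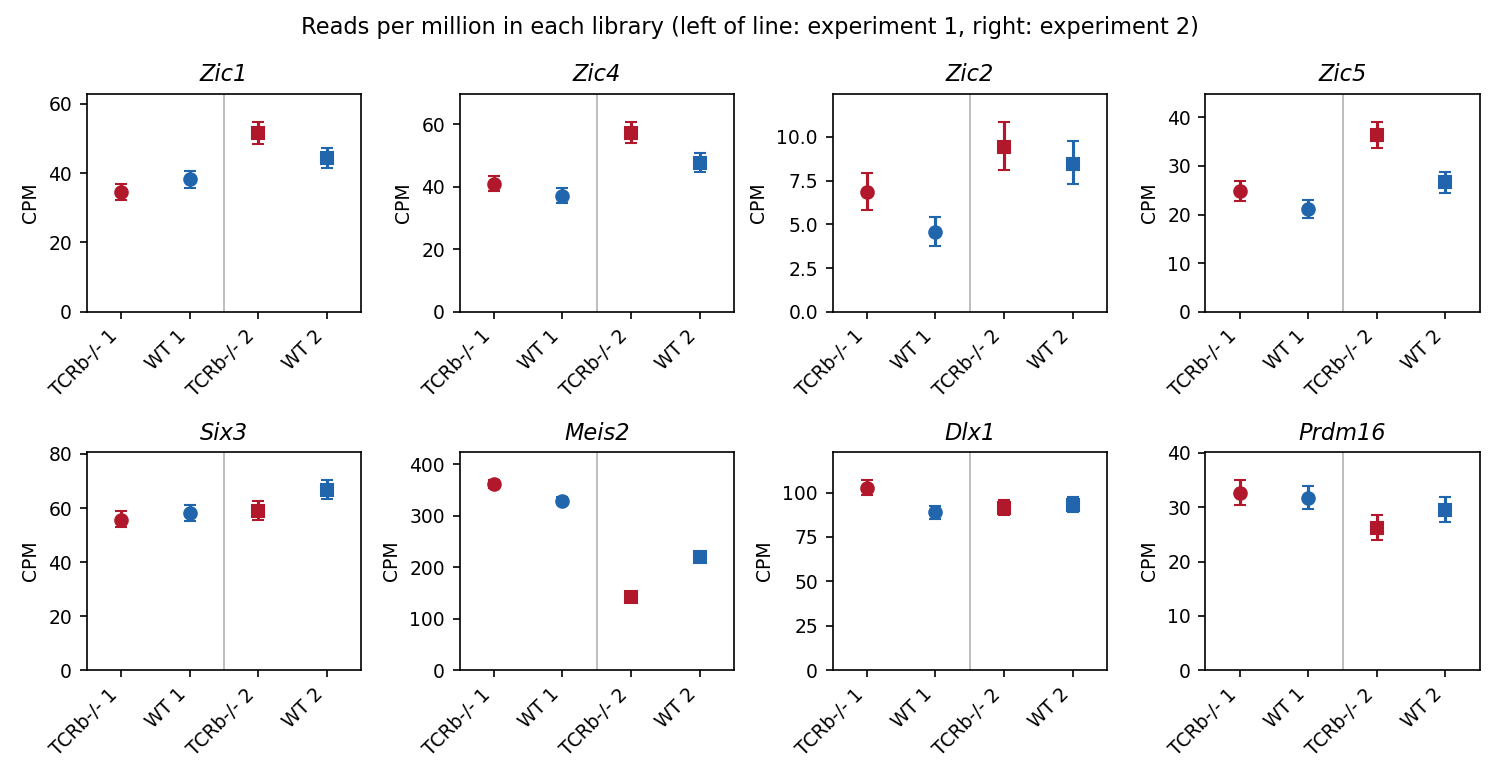
CPM of 8 genes in each library, with exact 95% intervals of the read count as bars; circles are experiment 1, squares experiment 2, red TCRb-/-, blue WT. Each panel has its own axis from 0. The Zic genes are highest in TCRb-/- replicate 2 (Zic1 at 51.5 CPM), where Meis2 is lowest at 141 CPM.

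Zic1 had 34.6 CPM in TCRb-/- replicate 1, 51.5 in TCRb-/- replicate 2, 38.2 in WT replicate 1 and 44.2 in WT replicate 2. Both libraries of experiment 2 were above both of experiment 1, and TCRb-/- replicates 1 and 2 were the extremes. The means were 36.4 ± 2.53 CPM in experiment 1 and 47.9 ± 5.12 in experiment 2 (SD, n = 2 each), a log2 difference of 0.38 (SE 0.10; limma adjusted p 0.0316). The call was lost without TCRb-/- replicate 1 (adjusted p 0.129), TCRb-/- replicate 2 (0.1465) or WT replicate 1 (0.0565).

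Zic4, the partner of Zic1 on chromosome 9, had 41.0 CPM (experiment 1) and 57.3 CPM (experiment 2) in TCRb-/- and, in the same order, 37.0 and 47.7 CPM in WT. It rose with experiment in both genotypes, from 39.0 ± 2.77 to 52.5 ± 6.79 CPM (SD, n = 2 each), a log2 difference of 0.41 (SE 0.11; limma adjusted p 0.0294). The adjusted p was 0.0578 without TCRb-/- replicate 1, 0.129 without TCRb-/- replicate 2 and 0.122 without WT replicate 1. The ratio of Zic4 to Zic1 CPM ran from 0.971 in WT replicate 1 to 1.18 in TCRb-/- replicate 1, while over the libraries Zic1 varied 1.49-fold and Zic4 1.55-fold. Zic1 and Zic4 therefore varied more than their ratio did.

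Zic2 and Zic5 form the other head-to-head pair, on chromosome 14, Zic5 on the minus strand from 122456795 to 122465677 and Zic2 on the plus strand from 122475435 to 122479852. Zic2, a forebrain midline factor, had 6.83 CPM (exact 95% interval 5.84 to 7.95) and 9.41 CPM (8.11 to 10.9) in TCRb-/- replicates 1 and 2. In WT replicates 1 and 2 it had 4.54 CPM (3.76 to 5.43) and 8.45 CPM (7.29 to 9.75). The lowest library was WT replicate 1, with 119 reads, and the 2 experiments did not overlap. The log2 difference was 0.59 (SE 0.19), with a limma adjusted p of 0.0578, and of 0.0308 with the replicate block. It was 0.34 without WT replicate 1 (limma adjusted p 0.258), and it passed the test without TCRb-/- replicate 1 (0.84, adjusted p 0.0439) and without WT replicate 2 (0.66, adjusted p 0.0370).

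Zic5 had 24.8 CPM (experiment 1) and 36.3 CPM (experiment 2) in TCRb-/- and, in the same order, 21.1 and 26.6 CPM in WT. WT replicate 2 lay only slightly above TCRb-/- replicate 1, and TCRb-/- replicate 2 stood apart at the top. The log2 difference was 0.43 (SE 0.15; limma adjusted p 0.0799, and 0.0220 with the replicate block). It was 0.21 without TCRb-/- replicate 2 (limma adjusted p 0.362) and 0.64 without WT replicate 2 (0.00334). The ratio of Zic5 to Zic2 CPM ran from 3.15 in WT replicate 2 to 4.65 in WT replicate 1.

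All 4 Zic genes were highest in TCRb-/- replicate 2. Of the 4, 2 were called higher without the block, beside 8.95% of all genes tested, and 4 with it, beside 9.29%.

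Six3, which is needed for the rostral forebrain, had 55.7 CPM (experiment 1) and 59.0 CPM (experiment 2) in TCRb-/- and, in the same order, 58.1 and 66.7 CPM in WT. It was among the steadiest of the 8 genes, with the highest library 1.20-fold above the lowest. The log2 difference between experiments was 0.14 (SE 0.08), which did not pass the test (limma adjusted p 0.264), and it was 0.05 without WT replicate 2 and 0.23 without TCRb-/- replicate 2. Six3os1, a transcript from the opposite strand that shares 106 bp of exon with Six3, had 12.0 and 12.6 CPM in TCRb-/- and 12.9 and 16.4 CPM in WT. Six3 and Six3os1 were both highest in WT replicate 2. The sources used here do not state the strand setting of the counting, so reads from the overlap cannot be assigned.

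Meis2, which lies on chromosome 2 from 115863064 to 116065839, had 361 CPM in TCRb-/- replicate 1, 329 in WT replicate 1, 219 in WT replicate 2 and 141 in TCRb-/- replicate 2. Both libraries of experiment 1 were high and TCRb-/- replicate 2 was the lowest, and the experiments did not overlap. The means were 345 ± 22.7 CPM in experiment 1 and 180.4 ± 55.0 in experiment 2 (SD, n = 2 each), and the gene fell by 0.96 on the log2 scale (SE 0.17; limma adjusted p 0.0102). The call was lost without TCRb-/- replicate 1 (adjusted p 0.0506). The fall was to 0.392 of the experiment 1 level in TCRb-/- and to 0.667 in WT. Whether the fall differed between genotypes was not tested, since there was 1 library for each combination.

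Dlx1, a factor of GABAergic neurons on chromosome 2 from 71528113 to 71533981, had 103 CPM (experiment 1) and 91.4 CPM (experiment 2) in TCRb-/- and, in the same order, 88.9 and 93.2 CPM in WT. The experiments overlapped, and the highest library was 1.16-fold above the lowest, the smallest spread of the 8 genes. The log2 difference was -0.05 (SE 0.08; limma adjusted p 0.699) and ran from -0.15 without WT replicate 1 to 0.05 without TCRb-/- replicate 1. Its neighbour Dlx2, which acts together with it, had between 43.5 and 54.6 CPM, and the ratio of Dlx1 to Dlx2 CPM stayed between 1.88 and 2.04. Dlx1as, which overlaps 335 bp of Dlx1 exon on the opposite strand, had between 0.901 and 2.12 CPM.

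Prdm16, on chromosome 4 from 154316125 to 154636873, had 32.6 CPM (experiment 1) and 26.2 CPM (experiment 2) in TCRb-/- and, in the same order, 31.7 and 29.5 CPM in WT. Both libraries of experiment 2 were below both of experiment 1. The log2 difference of -0.20 (SE 0.10) did not pass the test (limma adjusted p 0.161), and it was -0.12 without TCRb-/- replicate 2.

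**Figure D2:**
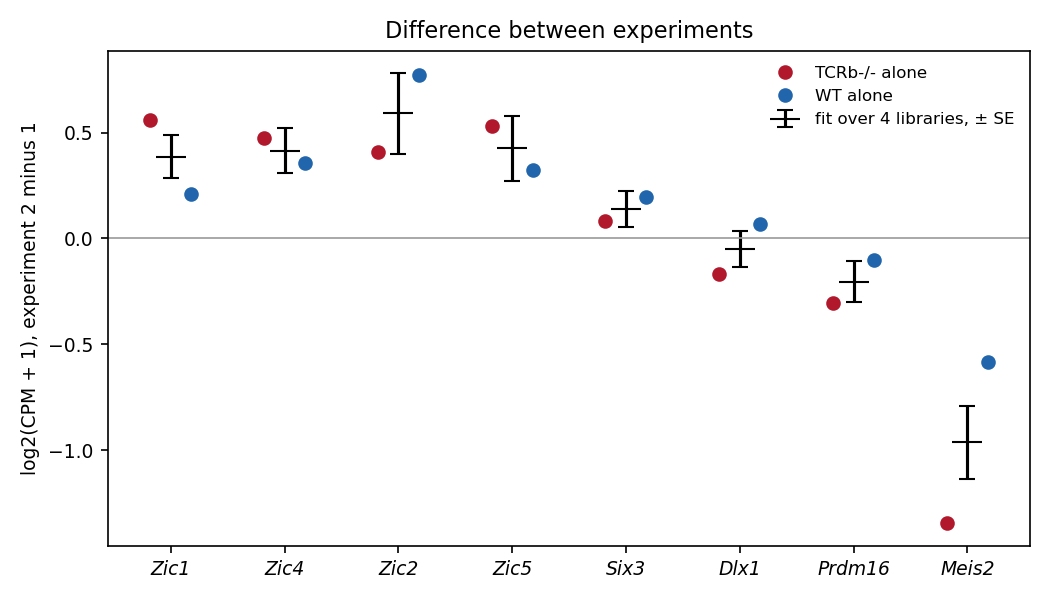
Difference in log2(CPM + 1), experiment 2 minus experiment 1, for the 8 genes. Black bars are the limma estimate ± SE over 4 libraries, red and blue points the difference within TCRb-/- and within WT (1 library against 1). All points of the 4 Zic genes lie above 0 and both Meis2 points below it, at -1.34 in TCRb-/- and -0.58 in WT.

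Marker genes of neighbouring regions differed between the same libraries. Striatal markers fell in experiment 2 for 14 of 15 genes tested, with a median log2 difference of -1.37, against -0.03 over all genes. The striatal median was -0.86 without TCRb-/- replicate 2. Their summed level was 6033 and 5397 CPM in TCRb-/- and WT replicate 1 and 1459.6 and 3247 CPM in TCRb-/- and WT replicate 2, the same order of libraries as Meis2. As a share of its own 4-library mean, Meis2 ran from 137% to 53.9% and the striatal sum from 149.6% to 36.2%. Ppp1r1b and Penk, the most abundant of them, had 299.8 and 325 CPM in TCRb-/- replicate 2 and 1574 and 1241 CPM in TCRb-/- replicate 1. No striatal marker was at 0 in any library. The part of striatal tissue in the Meis2 result was not tested.

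Thalamic markers rose for 6 of 12 genes tested and fell for 0, with a median of 0.70. The median was 0.36 without TCRb-/- replicate 2 and 1.06 without WT replicate 2. Their summed level was 460.4 CPM (experiment 1) and 910.5 CPM (experiment 2) in TCRb-/- and, in the same order, 466 and 591 CPM in WT, with all 12 highest in TCRb-/- replicate 2. Zic1 had the same order of libraries. Zic2, Zic4 and Zic5 differed from it in the order of the 2 libraries of experiment 1. Prkcd and Slc17a6 were the most abundant, Slc17a6 at 174 CPM in TCRb-/- replicate 2 and 57.9 CPM in TCRb-/- replicate 1. No thalamic marker was at 0 in any library, and the part of thalamic tissue in the Zic results was not tested.

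Choroid plexus markers rose for 15 of 16 genes tested (summed level between 1338 and 6992 CPM, led by Ttr and Enpp2) and ependymal markers for 3 of 8 (between 144 and 223 CPM, led by Rsph1 and Ccdc153). In TCRb-/- and WT replicate 1 the choroid plexus sum was 2183 and 1338 CPM, and in replicate 2 it was 6992 and 4254 CPM. The ependymal sum was 187 and 144 CPM, then 223 and 205 CPM. Both sums had the same order of libraries as Zic2, Zic4 and Zic5. Meningeal fibroblast markers were called for 0 of 11 tested, with 4 at an unadjusted p under 0.05 in limma. At least the 23.7% of all genes called after adjustment passed that threshold too. The meningeal markers summed to between 26.0 and 38.2 CPM. The sum was 33.2 CPM (experiment 1) and 37.4 CPM (experiment 2) in TCRb-/- and, in the same order, 38.2 and 26.0 CPM in WT. Septal markers were called higher for 1 of 6 (Nts) and lower for 0, with a median of 0.10 (between -0.01 without WT replicate 1 and 0.22 without TCRb-/- replicate 1). Cortical and hippocampal markers fell for 6 of 12 (between 119 and 365 CPM), and astrocyte markers for 2 of 8 (between 1047 and 1202 CPM). Neuroblast markers fell for 1 of 7 (Dcx; between 91.3 and 141 CPM), oligodendrocyte markers for 1 of 7 (between 8917 and 10599.9 CPM) and microglial markers for 1 of 6 (between 126 and 139.8 CPM). Of 4 cerebellar granule cell markers only Barhl2 was among the rows, at between 1.03 and 1.55 CPM. For the marker lists as for the 8 genes, the share of all genes tested was 8.95% called higher and 14.7% called lower. The part of these tissues in the differences of the 8 genes was not tested.

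**Figure D3:**
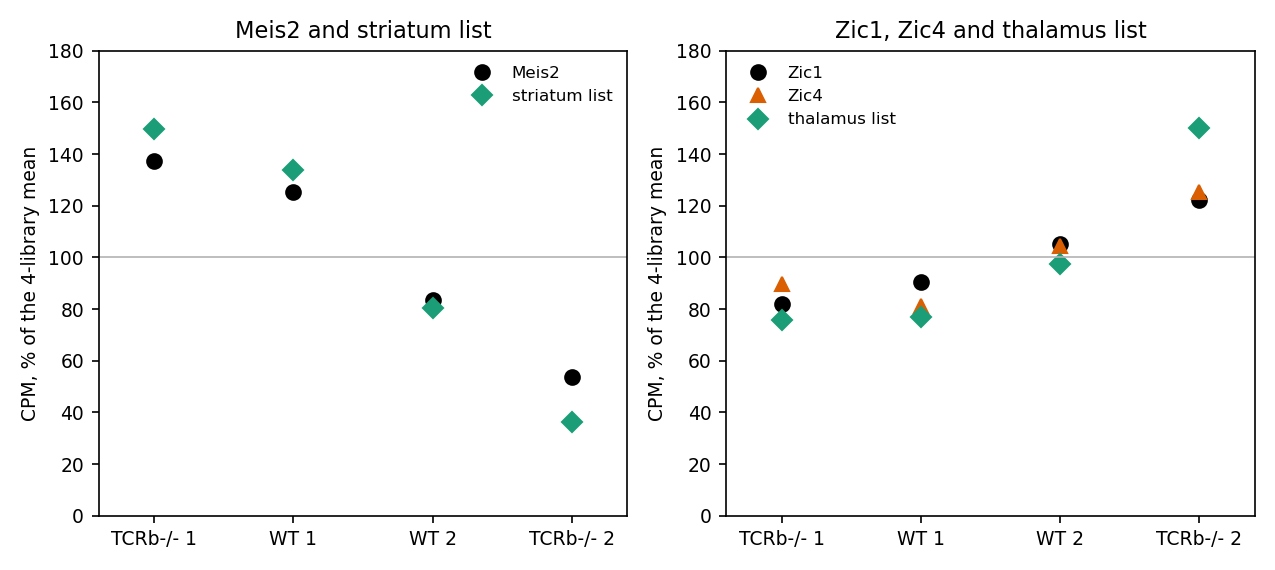
CPM as a percentage of each item's own mean over 4 libraries. Left, Meis2 and the sum of 15 striatal markers; right, Zic1, Zic4 and the sum of 12 thalamic markers. Meis2 falls to 53.9% and the striatal sum to 36.2% in TCRb-/- replicate 2, where Zic1 is at 122% and the thalamic sum at 150.0%.

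Longer genes tended to be lower in experiment 2: across 13556 genes, which are not independent, the difference between experiments had a Spearman rho of -0.398 with exon length. Zic1 and Zic4, which were called higher, have 5693 and 10335 bp of exon, and Meis2, which was called lower, has 12043 bp. Among those not called, Zic2 has 2880 bp (0.59), Zic5 4889 bp (0.43), Dlx1 5396 bp (-0.05), Six3 5446 bp (0.14) and Prdm16 9321 bp (-0.20), with the log2 difference between experiments in parentheses. These lengths join all annotated exons of a gene. The longest transcripts have 5606 bp for Zic1, 3891 bp for Zic4 and 5498 bp for Meis2, which is another order. The part of length in these differences was not tested.

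The genotype comparison asked whether loss of the beta chain went with other levels of these genes in stressed mice. None of the 8 genes passed the test, beside 0% of all genes tested, and with the replicate block none did, beside 0.0144%. The genotypes overlapped for all 8, beside 17.8% of genes whose genotypes did not overlap. At an unadjusted p under 0.05, limma had 0 of the 8 genes, beside 0.309% of all genes. With the block it had 2, Zic4 (p 0.0467) and Zic5 (p 0.0130), beside 5.64%, and both had an adjusted p of 0.848. Since the libraries of a genotype come from both experiments, the SD of a genotype also holds what set the experiments apart.

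Among the Zic genes, Zic5 averaged 30.6 ± 8.14 CPM for TCRb-/- against 23.9 ± 3.90 for WT (SD, n = 2 each), a log2 difference, TCRb-/- minus WT, of 0.33 (SE 0.23; limma adjusted p 1.00). Zic5 was above WT in both experiments, by 0.22 and 0.43. Zic2 had 8.12 ± 1.82 and 6.50 ± 2.77 CPM, with differences of 0.50 in experiment 1 and 0.14 in experiment 2. Zic4 had 49.1 ± 11.5 and 42.4 ± 7.52 CPM, with differences of 0.14 and 0.26. Zic1 had 43.0 ± 12.0 and 41.2 ± 4.30 CPM, and its difference changed sign, at -0.14 in experiment 1 and 0.21 in experiment 2. Thus 3 of the 8 genes were above WT in both experiments, where 27% of all genes tested were.

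Of the homeodomain genes, Six3 was lower in TCRb-/- in both experiments, by -0.06 and -0.18, with 57.4 ± 2.31 CPM against 62.4 ± 6.10 in WT (SD, n = 2 each). The other genes changed sign between experiments. In all, 4 of the 8 genes kept their sign, beside 51.6% of all genes, and 1 was below WT in both, beside 24.5%. Meis2 averaged 251 ± 155 CPM for TCRb-/- against 274 ± 77.4 for WT, with differences of 0.13 and -0.63. The striatal markers had medians of 0.16 and -1.17 in the same 2 within-experiment comparisons. Dlx1 had 97.1 ± 7.99 and 91.0 ± 3.05 CPM, with differences of 0.21 and -0.03. Prdm16 had 29.4 ± 4.54 and 30.6 ± 1.58 CPM, with differences of 0.04 and -0.17. In each case the libraries of the genotypes overlapped.

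**Figure D4:**
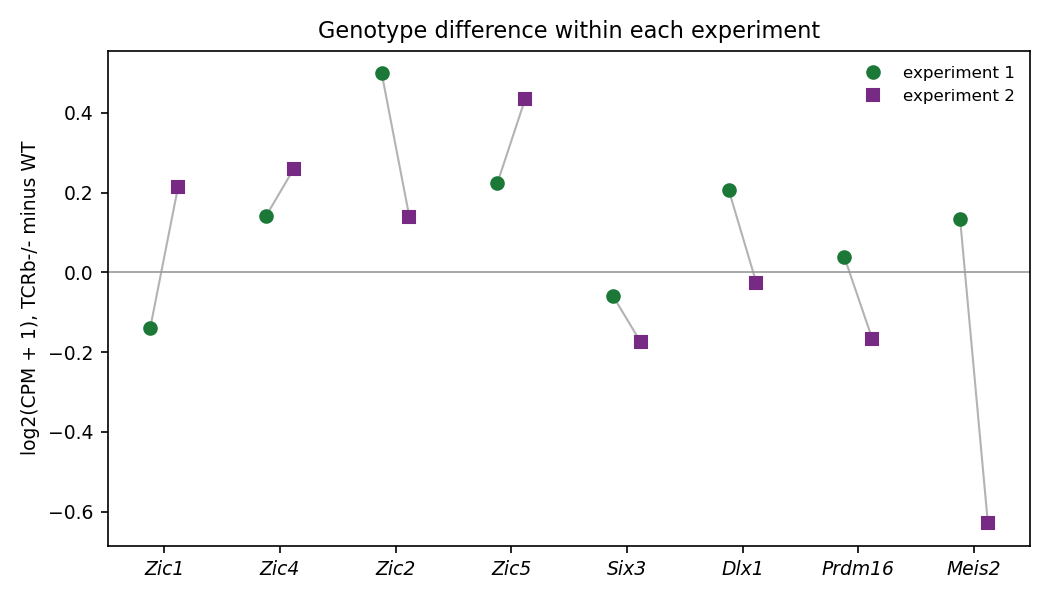
Difference in log2(CPM + 1), TCRb-/- minus WT, within experiment 1 (green circles) and experiment 2 (purple squares), 1 library against 1, for the 8 genes. Zic2, Zic4 and Zic5 lie above 0 in both experiments, Six3 lies below 0 in both, and Meis2 goes from 0.13 to -0.63.

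Related factors and the signalling pathways that act with these genes were read from 8 lists. Leaving the 8 genes out, 70 list genes were tested, of which 2 rose and 9 fell in experiment 2. That is 15.7%, beside 23.7% of all genes (8.95% higher, 14.7% lower), the shares against which each list's count is to be read, and 0 of 70 were called by genotype.

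The TALE homeodomain list includes the PBX proteins, which bind DNA together with MEIS factors, and the PREP proteins. Of 9 tested, 1 rose and 2 fell. Pbx3 had 57.2 and 58.4 CPM in experiment 1 (TCRb-/-, WT) and 34.6 and 41.3 CPM in experiment 2, a fall of 0.60 on the log2 scale (SE 0.10; limma adjusted p 0.00837). Pknox2 fell by 0.60 too (SE 0.07; adjusted p 0.00501 in limma), from 74.8 and 72.4 to 48.5 and 47.9 CPM. Pbx4 rose by 0.40 (SE 0.09; limma adjusted p 0.0182). With the block, 5 of the 9 fell, beside 15.4% of all genes, Meis1 and Pknox1 among the further ones, named after their values were seen.

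Among the relatives of Six3 and their EYA and DACH cofactors, 1 of 7 tested fell, beside 14.7% of all genes, and 0 rose. Dach1 had 25.4 CPM (experiment 1) and 6.15 CPM (experiment 2) in TCRb-/- and, in the same order, 21.5 and 13.5 CPM in WT, lowest in the library in which Meis2 was lowest (log2 difference -1.26, SE 0.29; limma adjusted p 0.0198). Eya1 (-0.52) and Eya2 (-0.51) did not pass (limma adjusted p 0.0638 and 0.0521).

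Of the 12 genes of the GABAergic list, which holds other DLX genes with Gad1, Gad2 and Slc32a1, 0 were called in limma and 0 with the block. Their median log2 difference between experiments was -0.02, and between -0.09 and 0.07 with 1 library left out (without WT replicate 2 and without TCRb-/- replicate 2). Among them, Sp8 (0.23) and Sp9 (0.12) had limma adjusted p of 0.256 and 0.398. At an unadjusted p under 0.05, limma had 0 of the 12, beside at least the 23.7% of all genes called after adjustment.

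Of the genes linked to Nkx2-1 and the ventral forebrain, 1 of 9 tested rose and 1 fell. Gbx2, a homeobox gene also used in the thalamus, had 6.67 CPM (experiment 1) and 28.9 CPM (experiment 2) in TCRb-/- and, in the same order, 8.20 and 15.2 CPM in WT. The log2 difference was 1.39 (SE 0.26; limma adjusted p 0.0117). Lhx6 and Lhx8, which act downstream of Nkx2-1, had means of 85.4 and 40.0 CPM over the 4 libraries, and Isl1 had between 41.9 and 52.1 CPM, none of them called. Of the Nkx genes on the list, Nkx2-2, Nkx2-4 and Nkx6-2 were not among the rows.

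Among the other PRDM genes, 1 of 8 tested fell, Prdm15 (log2 difference -0.54, SE 0.17; limma adjusted p 0.0494), and 0 rose. Prdm4 (-0.33) and Prdm2 (-0.25) did not pass (limma adjusted p 0.0693 and 0.178).

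In the Hedgehog and GLI list, whose factors share their finger type with the ZIC proteins, 1 of 13 tested fell, beside 14.7% of all genes, and 0 rose. That gene was Hhip, an inhibitor of Hedgehog ligands, at 6.91 CPM (experiment 1) and 4.35 CPM (experiment 2) in TCRb-/- and, in the same order, 7.97 and 4.65 CPM in WT (log2 difference -0.62, SE 0.15; limma adjusted p 0.0255). Shh had between 1.49 and 2.50 CPM. Sufu (-0.41) and Disp1 (-0.28) did not pass (limma adjusted p 0.0709 and 0.238). Of 11 FGF signalling genes, which pattern the septal midline in the embryo, 3 fell, beside 14.7% of all genes, and 0 rose: Fgfr2 by 0.34 (SE 0.07), Etv5 by 0.60 (SE 0.15) and Spry2 by 0.73 (SE 0.22), with limma adjusted p of 0.0177, 0.0247 and 0.0483.

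The genes whose profile over the 4 libraries lay nearest to that of Zic1 were Nrtn, Amotl1 and Klhdc9, at Euclidean distances of 0.0260, 0.0263 and 0.0289 between profiles of log2(CPM + 1) centred on their own means. Amotl1 had 32.5 CPM (experiment 1) and 49.2 CPM (experiment 2) in TCRb-/- and, in the same order, 35.6 and 41.4 CPM in WT. For Six3 they were Aldh1l1, Umad1 and Spsb4, at 0.0117, 0.0180 and 0.0240. With 4 libraries such likeness is common: 74 of 9814 genes lay within 0.1 of Zic1 and 224 of them within 0.1 of Six3.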

How the data were processed

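RNA from septal tissue was sequenced in 4 libraries after SMARTer low-input library construction, per the labels' protocols. Nothing says whether the pools were independent beyond the experiment number, so p-values measure the spread between these pools. Each experiment held 1 library per genotype, so the SD of an experiment also holds the genotype difference. The same is true of the SE and p between experiments without the block. Spread between pools of the same genotype and experiment was not measured. The submitters' processing notes name HISAT2 2.1.0, SAMtools 1.3, HTSeq 0.9.1, R 4.0.5, limma 3.46.0 and mm10, with no role or order. The authors deposited log2 values per gene and library. The deposited log2 values are of reads scaled to the library total (CPM), with 0.5 added to the reads and 1 to the total: whole reads were recovered for all values within 0.001 reads, and totals were derived from the same steps.

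From the recovered reads, CPM was computed, genes averaging 1 CPM or more were kept, and log2(CPM + 1) was tested in limma 3.58.1 (R 4.3.3). The moderation used a mean-variance trend. Tests were two-sided, and p was adjusted over all genes (Benjamini-Hochberg, threshold 0.05). Fold changes on this scale understate those of low genes. Genotype and experiment were tested in separate fits. Replicate numbers are experiments, per the labels, and same-numbered libraries deviated together (r = 0.72 across 13912 genes), so the fit with both terms, the replicate block, is given where it changes a call. Intervals are exact binomial and cover counting error only: 1 library of these totals has a floor (3 reads) between 0.114 and 0.150 CPM. RPKM used GENCODE exons (GRCm38). The members and lists were chosen with earlier results of these data known. Named list genes are up to 3 per pathway list with the smallest p between experiments and the 2 most abundant per marker list. A few genes that this rule names are not reported here. Tests were checked on simulated data that held changes of the tested factor only, so the check does not cover the spread added by the other factor.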

Additional observations from a re-analysis of the deposited data

How the results depend on the processing

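By genotype, 0 genes were called, 2 with the replicate block and between 0 and 47 with 1 library left out (47 without TCRb-/- replicate 1). By experiment, 3292 genes were called, 629 without a mean-variance trend and between 1406 and 3390 with 1 library left out. Of the 8 genes, 3 were called by experiment, 5 with quantile normalization, 5 with the replicate block, 0 without the trend, and between 1 and 5 with 1 library left out (1 without TCRb-/- replicate 1, without TCRb-/- replicate 2 or without WT replicate 1). Of the pathway list genes, 11 were called by experiment, 3 without the trend and between 4 and 18 with 1 library left out. With all libraries, the genotype difference kept its direction and its side of the threshold in 71 of 71 values of the 8 genes, and the experiment difference in 63 of 71. Settings that change only the filter, the trend or the block leave the log2 difference as it is, so they could not change a direction. Of 32 genotype values with 1 library left out, 7 reversed. With 1 library left out, the genotype difference ran from -0.24 to 0.32 for Zic1, -0.066 to 0.70 for Zic2, -0.037 to 0.44 for Zic4, -0.92 to 0.43 for Meis2 and -0.22 to 0.089 for Prdm16, and the experiment difference of Dlx1 from -0.15 to 0.054. The cause of these changes was not tested. A lone library left in a group is assumed to vary like the others. Zic2 has no value under the filter at 10 CPM. The replicate block changed no other call of the 8 genes than those of Zic2 and Zic5. At 119 to 189 reads, counting error limits Zic2 most.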
